A study of Homo sapiens with 4 samples.

Results

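Open chromatin was examined around 5 stress genes in HCT116, a colorectal cancer line of human origin. The cells were wild type and had been kept for 6 h in tunicamycin at 0.5 µg/ml (2 libraries) or in 0.1% DMSO, the solvent control (2 libraries). The assay was ATAC-seq, in which a transposase cuts accessible DNA and inserts sequencing adapters, and each library came from 50000 cells. The libraries of a group are described as biological replicates, all 4 carry the same wild-type genotype, and the knockout cells named in the title of the series are not analysed here. The genes were DDIT4, SESN2, SESN3, EIF4EBP1 and CHAC1. A peak belonged to a gene when its midpoint lay within 20 kb of the gene's start on hg19, and a promoter region was one with its midpoint within 2 kb. By this rule 85 of the 234140 listed peaks were members, 19 and 23 in tunicamycin replicates 1 and 2 and 21 and 22 in DMSO replicates 1 and 2. Merging peaks that shared at least 1 bp gave 30 regions of 78788 in the whole series. Of these, 10 lay near DDIT4, 8 near CHAC1, 6 near SESN2, 5 near EIF4EBP1 and 1 near SESN3, and 11 were promoter regions. No marker check of the cell line was made, because gene positions on hg19 were at hand for these 5 genes only.

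Tunicamycin blocks protein N-glycosylation, so that unfolded proteins accumulate in the endoplasmic reticulum (ER). Cells answer through the unfolded protein response, whose PERK branch phosphorylates eIF2alpha, lowers general translation and favours synthesis of the transcription factor ATF4. ATF4 and its partner CHOP are known to switch on genes that save resources, and DDIT4, SESN2, EIF4EBP1 and CHAC1 have been described as ATF4 targets. DDIT4 (REDD1) and the sestrins SESN2 and SESN3 lower the activity of mTORC1, the kinase complex that drives protein synthesis and growth. DDIT4 does so through the TSC complex, and SESN2 binds leucine and acts on GATOR2. EIF4EBP1 encodes 4E-BP1, which mTORC1 phosphorylates and which in its unphosphorylated form holds back the cap-binding factor eIF4E. CHAC1 encodes a gamma-glutamylcyclotransferase that breaks down glutathione in the cytosol.

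The promoter sequences are shown because the open regions of DDIT4, SESN2 and CHAC1 lay over or just before the start, whereas that of SESN3 did not. They are RefSeq sequences of GRCh38.p14, from 250 bases before to 50 bases after the RefSeq start, and 4 of the 5 genes had an entry. The peaks are on hg19, so no motif was placed inside a peak. Capitals mark CCAAT or its complement ATTGG, the box bound by NF-Y. They also mark, in CHAC1 at position -209, a match on the opposite strand to TGATGNAA, the core of the C/EBP-ATF response element that ATF4 binds.
DDIT4 (chr10:72273674-72273973, + strand): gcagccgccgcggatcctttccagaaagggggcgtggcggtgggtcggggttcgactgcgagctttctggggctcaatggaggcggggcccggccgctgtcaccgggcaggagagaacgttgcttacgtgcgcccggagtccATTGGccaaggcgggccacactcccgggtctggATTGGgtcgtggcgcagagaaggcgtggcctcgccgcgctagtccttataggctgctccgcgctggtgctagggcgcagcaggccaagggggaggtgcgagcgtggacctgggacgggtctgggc
SESN2 (chr1:28259268-28259567, + strand): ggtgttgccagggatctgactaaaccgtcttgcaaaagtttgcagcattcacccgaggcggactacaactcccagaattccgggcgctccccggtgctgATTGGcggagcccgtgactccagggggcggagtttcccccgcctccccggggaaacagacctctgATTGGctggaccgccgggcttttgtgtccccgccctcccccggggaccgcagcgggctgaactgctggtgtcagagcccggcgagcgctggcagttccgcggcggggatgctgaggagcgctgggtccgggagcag
SESN3 (chr11:95232426-95232725, - strand): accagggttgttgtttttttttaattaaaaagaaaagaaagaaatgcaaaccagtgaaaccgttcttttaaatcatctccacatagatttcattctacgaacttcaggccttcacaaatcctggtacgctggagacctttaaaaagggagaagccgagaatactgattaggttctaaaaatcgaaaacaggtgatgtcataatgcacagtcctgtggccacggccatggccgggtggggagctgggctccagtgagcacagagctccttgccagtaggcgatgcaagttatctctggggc
CHAC1 (chr15:40953221-40953520, + strand): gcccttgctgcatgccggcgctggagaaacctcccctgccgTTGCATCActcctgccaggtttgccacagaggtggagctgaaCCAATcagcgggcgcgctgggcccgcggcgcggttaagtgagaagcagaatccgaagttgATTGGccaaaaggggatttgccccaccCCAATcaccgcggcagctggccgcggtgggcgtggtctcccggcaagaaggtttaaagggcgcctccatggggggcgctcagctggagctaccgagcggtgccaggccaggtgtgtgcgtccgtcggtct

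The CHAC1 promoter held 3 CCAAT boxes, and those of DDIT4 and SESN2 held 2 each. SESN3 had no match to any of the motifs searched on both strands. Among 27305 RefSeq promoters of the same length, CCAAT occurred in 35.7% and the GC box GGGCGG in 44.6%, which the SESN2 promoter held on each strand. The response element core TGATGNAA occurred in 3.67% and the TATA box TATAAA in 12.0%. The CRE core TGACG, and the ER stress motif TGACGTG of which it is a part, were searched for too and had no match in the 4 promoters, and 2.0% of all promoters held TGACGTG and 25.0% the shorter motif. The G and C content was 69.7% for DDIT4, 67.0% for SESN2 and 65.3% for CHAC1, against a median of 58.3%, and 45.0% for SESN3. SESN3 also had the fewest CpG dinucleotides of these promoters, with 8 against a median of 14 over all promoters, while DDIT4 had 30, SESN2 25 and CHAC1 24.

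No open region of the 5 genes passed a test for a difference between stressed and control cells. Of the 30 regions, 12 had a peak in all 4 libraries (40.0%, against 51.3% of all regions), and every gene had at least 1 of them within 2 kb of its start. These 12 common regions were tested for a change in strength and in width, and 0 were called in either direction. At an unadjusted p under 0.05, limma put 1 of the 12 higher and 3 lower in rank, and 0 wider and 0 narrower. These rank counts depended on the settings. They were 0 higher and 1 lower with a limma prior that did not vary with the mean, and also on log2 of the summit reads. Ranked by fold they were 0 and 3, and with peaks up to 250 bp apart merged 1 and 3. The strength test compared each library's ranks of the caller's q-value over the 40447 regions common to the whole series, turned into normal scores, with limma and Benjamini-Hochberg adjustment. The width test compared log2 widths in the same way. Across all common regions limma called 14 higher (0.0346%) and 7 lower (0.0173%) in rank, and 0 wider (0.0%) and 0 narrower (0.0%), with 1506 and 1459 rank differences and 1540 and 973 width differences in those directions at an unadjusted p under 0.05. The smallest adjusted p among the 12 was 0.466 for rank and 0.843 for width, by limma.

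**Figure D1:**
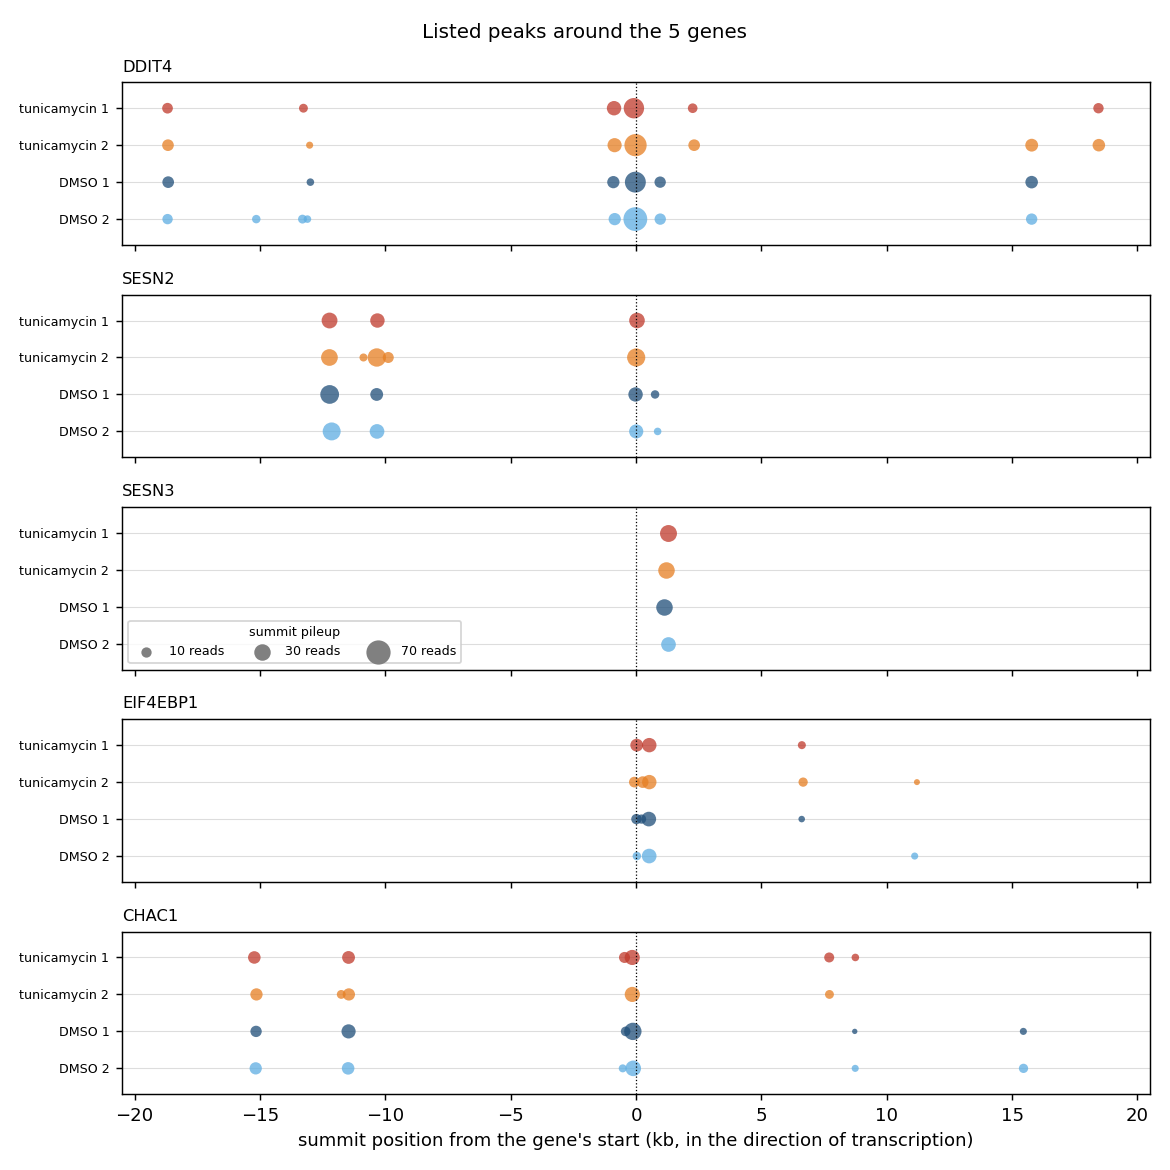
Summits of all listed peaks within 20 kb of the 5 gene starts, by library. The x axis is the distance from the start in kb along the direction of transcription, the area of a point is the summit pileup in reads, and the dotted line is the start. The 12 sites listed in all 4 libraries include 1 or more near every start, the other 18 are missing from 1 or more lists, and SESN3 has 1 site, inside the gene.

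The depth of a site is given as its summit pileup, the number of reads stacked at the peak's highest base, which was recovered from the authors' fold and p-value in each list. The lists held 58467 and 62526 peaks in tunicamycin replicates 1 and 2 and 56581 and 56566 in DMSO replicates 1 and 2. The median summit had 15 or 16 reads in every library, over different peaks in each list. The genome-wide background lay between 0.1403 and 0.1467 reads per base, so that by this measure depth differed little if reads were extended alike in the 4 libraries. Over the 40447 common regions the median summit had 19.0 and 21.0 reads in tunicamycin replicates 1 and 2 and 18.0 and 19.0 in DMSO replicates 1 and 2. The median local background there was 0.549 and 0.597 after tunicamycin and 0.542 and 0.554 after DMSO. Summit reads below are not adjusted for these offsets unless stated. Read totals were not used here. Whether fewer cells were open at a site or each was open less cannot be told apart in bulk libraries. The local background, which the caller sets against the summit, was higher in both tunicamycin libraries than in both DMSO libraries at 7 of the 12 common regions and lower at 1, beside 27.6% higher and 11.5% lower over all common regions. Its part in the ranks below was not tested.

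DDIT4 had the strongest promoter of the 5 genes by summit reads and by rank of the q-value in every library, but not by fold. In fold its start region lay below the SESN2 start in both tunicamycin libraries and below the CHAC1 start in DMSO replicate 1. The region over the DDIT4 start, chr10:74033479-74033798 on hg19, had 58 and 69 reads at the summit in tunicamycin replicates 1 and 2, against 61 and 79 in DMSO replicates 1 and 2. The read counts of the groups overlapped. Its percentile rank among the common regions was 94.7 and 95.8 after tunicamycin and 97.4 and 99.3 after DMSO, so that both tunicamycin ranks lay below both DMSO ranks at a site near the top in every library. The rank score differed by -0.54 ± 0.25 (SE), where 1 unit is 1 SD over all common regions, with an unadjusted 95% interval of -1.04 to -0.03 and a limma adjusted p of 0.656. Without DMSO replicate 2 it was -0.27. With a limma prior that did not vary with the mean, the interval was -1.3 to 0.23. The local background was 2.36 and 2.79 reads in the tunicamycin libraries and 2.03 and 2.08 in the DMSO libraries. The peak was 268 and 307 bp wide after tunicamycin and 298 and 300 bp after DMSO and covered the start in all 4 lists. Its summit stood at -84 and -19 bp from the start after tunicamycin and at -26 and -27 bp after DMSO.

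A second DDIT4 site lay upstream, at -0.9 kb (chr10:74032641-74032947). It had 29 and 28 summit reads in tunicamycin replicates 1 and 2 and 21 in each DMSO replicate. Both tunicamycin values were thus the higher, and the peak was also wider, with 268 and 201 bp against 137 and 187 bp after DMSO. The percentile ranks were 44.5 and 28.2 after tunicamycin and 23.6 and 22.4 after DMSO. Neither difference passed the test: the rank score differed by 0.38 ± 0.43 (SE, limma adjusted p = 0.915) and the log2 width by 0.54 ± 0.23 (SE, 95% interval -0.07 to 1.15, limma adjusted p = 0.843). Single libraries moved both, the rank difference to 0.16 without tunicamycin replicate 1 and 0.60 without tunicamycin replicate 2, and the width difference to 0.33 without tunicamycin replicate 1 and 0.31 without DMSO replicate 1. Ranked by fold, the rank difference was 0.16, and on log2 of the fold it was 0.09. Set against the start region of its own library, which removes depth, the upstream summit was 0.5 and 0.406 times as high after tunicamycin and 0.344 and 0.266 times after DMSO. Ratios of the common region at -18.7 kb to the start region overlapped, with 0.276 and 0.275 after tunicamycin and 0.311 and 0.19 after DMSO. Its ratios to the site at -0.9 kb did not, with 0.552 and 0.679 after tunicamycin and 0.905 and 0.714 after DMSO. Ratios with the site at -0.9 kb reuse its reads, which already separated, so they are no further evidence. They also leave out the local background, which at that site was 2.39 and 2.79 after tunicamycin and 2.04 and 2.07 after DMSO.

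DDIT4 carried 3 of the 6 regions of the set that were listed in both libraries of 1 group and in neither of the other. A lost region, listed in both DMSO libraries only, lay at +1.0 kb (chr10:74034587-74034710), with 18 summit reads in each DMSO replicate over a local background of 2.11 and 2.13. A gained region, listed in both tunicamycin libraries only, lay further on at +2.3 kb (chr10:74035918-74036040), with 13 and 19 reads over a background of 2.40 and 2.86. Its −log10 q was 4.0 and 7.69 in tunicamycin replicates 1 and 2, and with peaks of at least 5 only it was not gained. The other gained region, at +18.4 kb (chr10:74052063-74052177), had 15 and 22 reads in tunicamycin replicates 1 and 2. All 3 were narrow, with peaks of 101 to 119 bp. A site missing from a list had no peak over the caller's threshold there, and its reads in the other group were not analysed here. In RefSeq the antisense RNA gene DDIT4-AS1 lies before DDIT4, and no region was assigned to it. A site at +15.8 kb was listed with 23 reads in tunicamycin replicate 2 and with 22 and 18 reads in the DMSO replicates, and not in tunicamycin replicate 1.

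**Figure D2:**
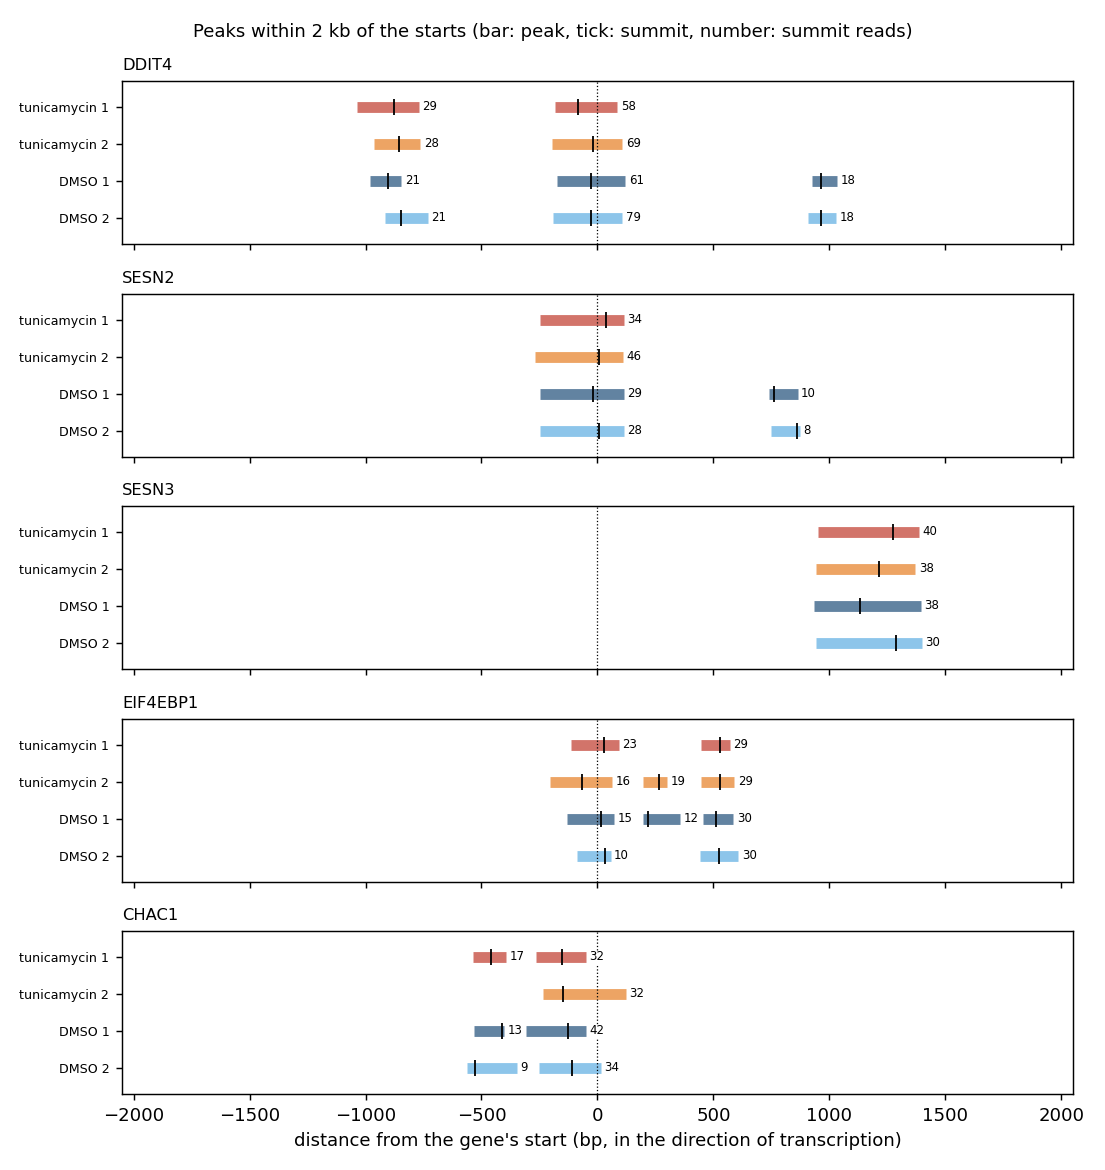
Peaks within 2 kb of the 5 starts, by library. Bars span each listed peak, ticks mark the summit and numbers give the summit reads, with distance from the start in bp along the direction of transcription on the x axis. The DDIT4, SESN2 and EIF4EBP1 starts are covered in every list, the CHAC1 start in 1 list of each group and the SESN3 start in none.

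SESN2 was the one gene whose start region ranked higher in both tunicamycin libraries than in both DMSO libraries, without passing the test. The region over its start (chr1:28585694-28586077) had 34 and 46 summit reads in tunicamycin replicates 1 and 2, against 29 and 28 in DMSO replicates 1 and 2, and the groups did not overlap. Exact Poisson 95% intervals for counting error were 23.5 to 47.5 and 33.7 to 61.4 in the tunicamycin libraries and 19.4 to 41.6 and 18.6 to 40.5 in the DMSO libraries, and these overlapped. Both tunicamycin libraries ranked higher, at percentiles 84.9 and 91.8 after tunicamycin and 73.9 and 72.6 after DMSO. The rank score differed by 0.59 ± 0.30 (SE, 95% interval 0.00 to 1.18), with a limma adjusted p of 0.680. With a limma prior that did not vary with the mean, the interval was -0.15 to 1.33. The local background showed no such separation, with 0.836 and 1.06 reads after tunicamycin and 0.994 and 0.896 after DMSO. On log2 of the summit reads, centred on each library's median, the difference was 0.36 ± 0.20 (SE, 95% interval -0.03 to 0.76, limma adjusted p = 0.691). Its edges were the same to the base in 3 of the 4 lists, at -246 and 114 bp from the start and 361 bp apart, and the fourth peak, in tunicamycin replicate 2, spanned 379 bp. Peaks with identical edges in at least 3 lists were rare, with 67 of 40447 common regions (0.166%).

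A pair of SESN2 sites far upstream had differences of opposite sign. The site at -12.1 kb (chr1:28573679-28573949) had 35 and 39 reads after tunicamycin and 49 and 45 after DMSO, and percentile ranks of 79.8 and 76.6 after tunicamycin and 95.5 and 92.3 after DMSO. Both tunicamycin values lay below both DMSO values, and the rank score difference was -0.78 ± 0.28 (SE, 95% interval -1.35 to -0.22). It had the smallest unadjusted p of the 12, 0.00686, and did not pass after adjustment over all common regions (limma adjusted p = 0.466). The neighbouring site at -10.3 kb (chr1:28575551-28575709), singled out after its values had been seen, had 29 and 47 reads in tunicamycin replicates 1 and 2 and 23 and 30 in DMSO replicates 1 and 2, so that the groups overlapped (rank score difference 0.59 ± 0.33, SE, limma adjusted p = 0.739). That difference was 0.98 without tunicamycin replicate 1, 0.21 without tunicamycin replicate 2 and 0.32 without DMSO replicate 1. Within each library the site at -10.3 kb reached 0.829 and 1.21 times the summit of the site at -12.1 kb after tunicamycin and 0.469 and 0.667 times after DMSO. The site at -12.1 kb in turn had 1.03 and 0.848 times the reads of the SESN2 start region after tunicamycin and 1.69 and 1.61 times after DMSO. That separation follows from the reads of both regions, which already separated in opposite directions. The ratio between the pair of upstream sites likewise reuses the reads at -12.1 kb, which already separated. Ratios of the site at -10.3 kb to the start region overlapped, with 0.853 and 1.02 after tunicamycin and 0.793 and 1.07 after DMSO. In RefSeq the gene before SESN2 is ATP5IF1, which encodes an inhibitor of the mitochondrial ATP synthase, and these sites were not assigned to either gene.

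SESN2 also had a lost promoter region, at +0.8 kb (chr1:28586701-28586836). It had 10 and 8 reads in DMSO replicates 1 and 2, with peaks of 126 and 127 bp. Both summits lay below the median of 15 reads in the DMSO lists, which went down to peaks of 3 reads. Tunicamycin replicate 2 alone listed sites at -10.8 and -9.9 kb, with 9 and 17 reads.

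SESN3, the other sestrin, had a single open region within 20 kb, and it did not cover the start used here. The region lay at +1.2 kb inside the gene (chr11:94964305-94964773). It was the widest of the 30, at 437 and 430 bp in tunicamycin replicates 1 and 2 and 464 and 459 bp in DMSO replicates 1 and 2. Both tunicamycin peaks were thus the narrower, by little (log2 width difference -0.09 ± 0.08, SE, 95% interval -0.30 to 0.12, limma adjusted p = 0.907). The summit had 40 and 38 reads after tunicamycin and 38 and 30 after DMSO, and the percentile ranks were 87.9 and 79.0 after tunicamycin and 88.8 and 74.7 after DMSO. The groups overlapped in reads and in rank (rank score difference 0.05 ± 0.30, SE, 95% interval -0.55 to 0.64, limma adjusted p = 0.989). Its nearest edge was 932 bp from the start. RefSeq lists more than 1 transcript for SESN3, and other starts on hg19 were not used here.

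EIF4EBP1, whose product holds back cap-dependent translation, lies on chromosome 8 and had a cluster of 3 promoter regions and the weakest start region of the 4 genes whose start was covered in any list. The region over its start (chr8:37887815-37888113) had 23 and 16 summit reads in tunicamycin replicates 1 and 2 and 15 and 10 in DMSO replicates 1 and 2. The reads of the groups were 1 read apart and did not overlap, whereas the percentile ranks did, at 45.5 and 12.3 after tunicamycin and 17.6 and 1.6 after DMSO. The rank score differed by 0.90 ± 0.51 (SE, 95% interval -0.13 to 1.92, limma adjusted p = 0.747), the largest difference of the 12 and the widest interval. It depended on the libraries, with 0.29 without DMSO replicate 2 and 0.37 without tunicamycin replicate 1, against 1.5 without DMSO replicate 1 and 1.42 without tunicamycin replicate 2. The peak spanned 208 and 270 bp after tunicamycin and 205 and 145 bp after DMSO (log2 width difference 0.46 ± 0.23, SE, limma adjusted p = 0.865). The width difference was 0.27 without tunicamycin replicate 2, 0.71 without DMSO replicate 1 and 0.21 without DMSO replicate 2. With peaks up to 250 bp apart merged, the start region joined its neighbours, the rank score difference turned to -0.32 and the log2 width difference was 0.08.

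The strongest EIF4EBP1 region stood at +0.5 kb (chr8:37888464-37888628). It had 29 reads in each tunicamycin replicate and 30 in each DMSO replicate. Its percentile ranks of 66.2 and 59.2 after tunicamycin lay below the 74.8 and 72.8 after DMSO (rank score difference -0.31 ± 0.33, SE, 95% interval -0.96 to 0.34, limma adjusted p = 0.902). Between the 2 regions, a site at +0.3 kb (chr8:37888217-37888375) was listed in 1 library of each group, with 19 reads in tunicamycin replicate 2 and 12 in DMSO replicate 1. Inside the gene, a site at +6.7 kb had 9 and 12 reads in the tunicamycin replicates and 6 in DMSO replicate 1, and one at +11.2 kb had 5 reads in tunicamycin replicate 2 and 7 in DMSO replicate 2.

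CHAC1 had a strong promoter region that ranked lower in both tunicamycin libraries, without passing the test. The region over its start (chr15:41245329-41245758) had 32 summit reads in each tunicamycin replicate, against 42 and 34 in DMSO replicates 1 and 2. Its percentile ranks were 80.4 and 73.5 after tunicamycin and 95.1 and 86.1 after DMSO, so that the groups did not overlap. The rank score difference was -0.63 ± 0.29 (SE, 95% interval -1.21 to -0.05, limma adjusted p = 0.644), and it was -0.34 without DMSO replicate 1. With a limma prior that did not vary with the mean, the interval was -1.4 to 0.15. The local background was 0.892 and 0.930 reads in the tunicamycin libraries and 0.776 and 0.827 in the DMSO libraries. The right edge of the peak varied within both groups. It ended at -49 bp, short of the start, in tunicamycin replicate 1 and DMSO replicate 1, and past the start, at 122 bp in tunicamycin replicate 2 and 14 bp in DMSO replicate 2. The summits stood at -151 and -148 bp after tunicamycin and at -126 and -111 bp after DMSO, so that all 4 summits lay before the start. The log2 width differed by 0.09 ± 0.25 (SE, limma adjusted p = 0.980).

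A smaller CHAC1 site at -0.5 kb (chr15:41245075-41245290) had 17 reads in tunicamycin replicate 1 and 13 and 9 in DMSO replicates 1 and 2, with no peak listed in tunicamycin replicate 2. CHAC1 had 1 gained and 1 lost region, both beyond the start. The gained region, at +7.7 kb (chr15:41253262-41253401), had 14 and 11 reads in tunicamycin replicates 1 and 2 and peaks of 140 and 130 bp, the widest among the gained and lost regions. The lost region, at +15.4 kb (chr15:41261015-41261132), had 7 and 12 reads in DMSO replicates 1 and 2. Upstream, 2 common regions at -15.2 and -11.4 kb had 21 to 23 reads after tunicamycin and 18 to 28 after DMSO, with overlapping read values at both. RefSeq lists DLL4, which encodes a Notch ligand, before CHAC1 and INO80, the ATPase of a chromatin remodelling complex, after it, and no site was assigned to them.

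**Figure D3:**
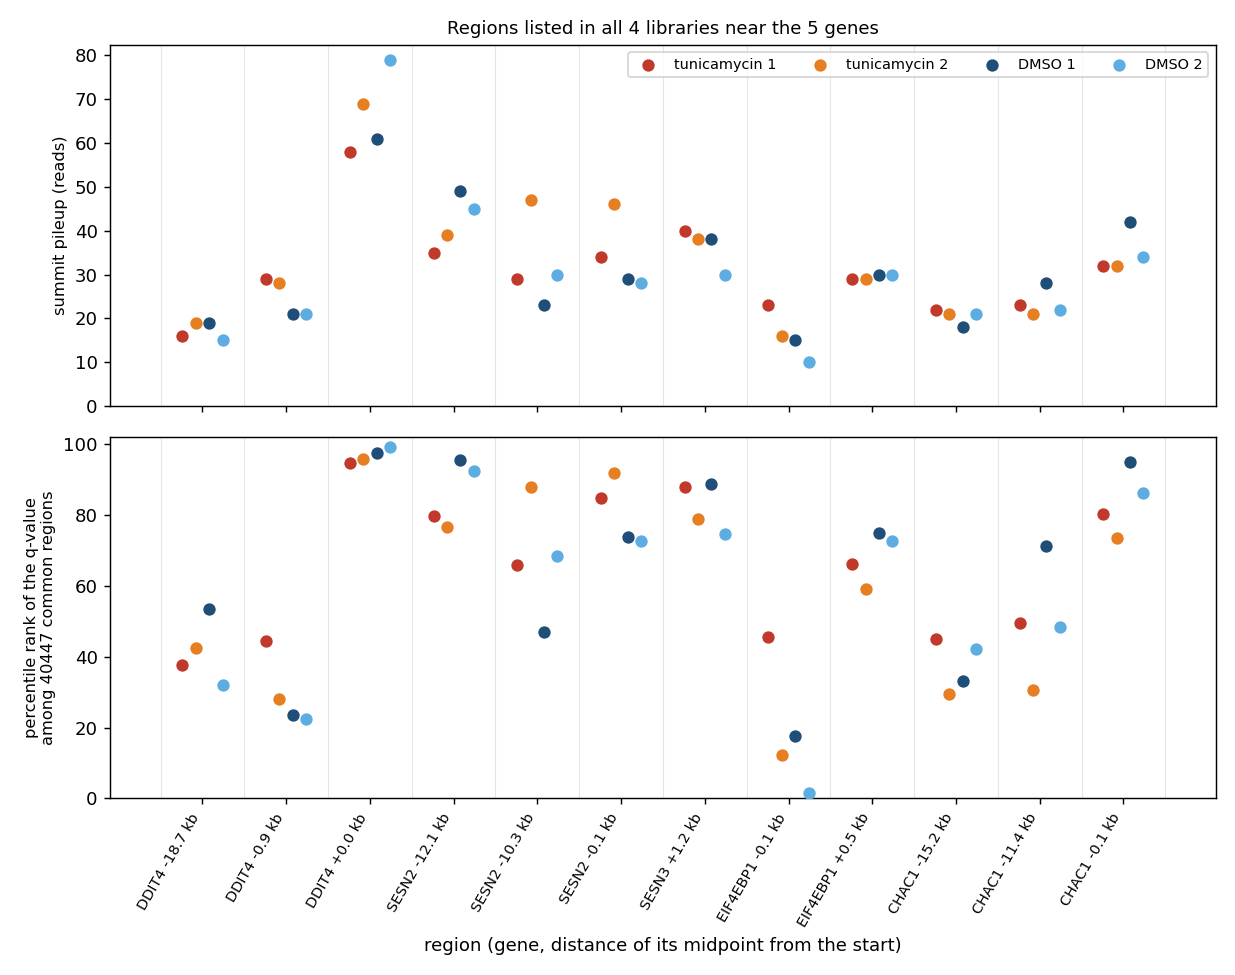
Summit reads (upper panel) and percentile rank of the q-value among the 40447 common regions (lower panel), by region on the x axis, for the 12 regions listed in all 4 libraries, with 1 point per library and the tunicamycin libraries on the left of each region. Ranks of the tunicamycin libraries lie above both DMSO ranks at the SESN2 start and at DDIT4 -0.9 kb, and below them at 4 regions.

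Across the 12 common regions, tunicamycin ranks lay above both DMSO ranks at 2 regions and below at 4, beside 18.0% and 18.3% of all common regions. The 2 were the SESN2 start and DDIT4 at -0.9 kb, and the 4 were the DDIT4 and CHAC1 starts, SESN2 at -12.1 kb and EIF4EBP1 at +0.5 kb. Widths of the groups did not overlap at 5 of the 12, wider at 4 and narrower at 1, beside 33.7% of all common regions in either direction. With 12 regions these counts are small. The median rank score difference was -0.04 over the 12 and 0.00044 over all common regions, and the median log2 width difference was 0.06 against 0.023. The 12 were stronger and wider than the common run of sites, with median summits of 29.0 and 30.5 reads against 19.0 and 21.0 in tunicamycin replicates 1 and 2, and of 28.5 and 29.0 reads against 18.0 and 19.0 in DMSO replicates 1 and 2. Median widths were 240 and 257 bp in the tunicamycin libraries and 222.5 and 223.5 bp in the DMSO libraries, against 182 and 188 bp in the tunicamycin libraries and 181 and 182 bp in the DMSO libraries over all common regions.

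**Figure D4:**
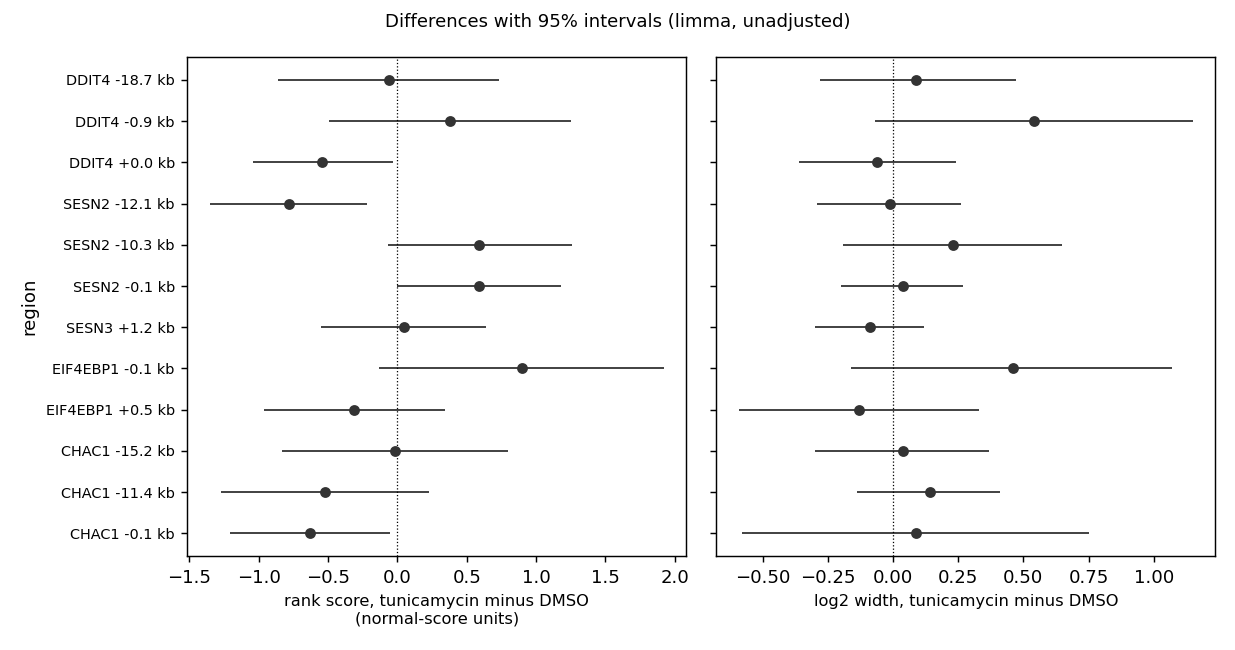
Difference of the rank score (left, normal-score units) and of log2 width (right), tunicamycin minus DMSO, for the 12 common regions. Points are limma estimates and bars unadjusted 95% intervals. The rank interval of SESN2 -12.1 kb, -1.35 to -0.22, lies farthest from 0, and no region passed after adjustment.

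Among the members 3 regions were gained (10.0%, against 3.65% of all regions) and 3 were lost (10.0%, against 1.86%). No test was made per gained or lost region, since the group without a peak has no value there, and the shares rest on 3 regions each. The gained regions had 11 to 22 reads and widths of 101 to 140 bp, and the lost ones 7 to 18 reads and 110 to 127 bp. Over the whole series, gained regions had a median of 9 reads in each tunicamycin library and lost regions a median of 8 in each DMSO library. The other 12 members, listed in 3 lists, in 1 list of each group or in 1 list, had 4 to 23 reads, whereas the common regions had 10 to 79. None of the 6 covered a gene's start, and 4 lay beyond 2 kb, DDIT4 at +2.3 and +18.4 kb and CHAC1 at +7.7 and +15.4 kb. With peaks of at least 150 bp only, none of these 6 could remain, since their widest peak was 140 bp. DDIT4 at -13.1 kb, listed in 3 libraries otherwise, then became the 1 lost region. Without tunicamycin replicate 1, which makes the definition looser, there were 6 gained and 5 lost, and the shares over all regions were 11.3% and 3.7%. With every list cut by q-value to the length of the shortest, 3 were gained and 4 lost. The shares over all regions were then 2.82% and 2.59%, closer to each other than with the full lists.

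Peaks covered 3885 and 4486 bp in tunicamycin replicates 1 and 2 and 4056 and 4222 bp in DMSO replicates 1 and 2 (4186 ± 425 against 4139 ± 117 bp, SD, n = 2 each, ratio 1.01, two-sided exact permutation p = 1.0). The smallest p that 2 libraries against 2 allow is 0.33. By gene, the groups did not overlap for SESN3, with 437 and 430 bp after tunicamycin and 464 and 459 bp after DMSO (exact permutation p = 0.33), and for CHAC1, with 1071 and 1076 bp after tunicamycin and 1082 and 1149 bp after DMSO (exact permutation p = 0.33). The number of peaks per gene gave an exact permutation p of 1.0 for every gene. It was lowest for SESN3, with 1 in every library. It was highest for DDIT4, with 6 and 7 in tunicamycin replicates 1 and 2 and 6 and 8 in DMSO replicates 1 and 2. No p of these 12 exact tests was under 0.33.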

How the data were processed

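Peak lists of 4 ATAC-seq libraries were analysed, 2 per group, grouped by their labels. The submitters' processing notes name MACS2 2.2.7.1, Bowtie2 2.3.5.1, Picard 2.18.23, Trim Galore, deepTools, SAMtools and the build hg19. How these were set, whether reads were shifted for the transposase and how peaks were filtered is not given in the sources used here. Each deposited list gives a peak's position, a whole-number score, a fold and −log10 p- and q-values, all as the authors' caller wrote them. The fold was taken as the ratio of the summit to its local background after the same pseudocount was added to both, so it is not the plain ratio. The q-values were ranked within each list. Summit reads and local background, recovered from the fold and p-value, were set side by side between lists without adjustment. In alternative fits, log2 of the fold and of the summit reads, centred on each library's median, were compared between groups.

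From the deposited fold and −log10 p-value, the summit pileup and local background were recovered as the whole number of reads that gives both within 0.001, which existed for 100% of the peaks. Intervals on pileups cover counting error only. Lists were merged at 1 bp of overlap (Python 3.11.15, pandas 2.3.3, numpy 2.4.6). For regions listed in all 4 libraries, ranks of the q-value and log2 widths entered limma 3.58.1 under R 4.3.3, with a mean-dependent prior and Benjamini-Hochberg adjustment at 0.05. Single values had two-sided exact permutation tests (scipy 1.17.1). The steps across many regions were tested on simulated data. The rank shifts planted there were larger than any difference reported here, so the power for smaller ones was not tested. The p-values measure only the spread between these libraries. In limma the SE, interval and p of a region do not rest on its own spread alone, which is drawn toward that of the other common regions. Regions were named if they lay within 2 kb, were gained, lost or called, or had a gene's largest rank difference, and others named were chosen after their values were seen. The members, lists and tests were chosen with earlier results of these data known. A planned count over other mTORC1 and glutathione genes was not made, for want of gene positions on hg19.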

Additional observations from a re-analysis of the deposited data

How the results depend on the processing

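None of the 12 common regions was called under any of the 11 alternatives for rank or the 8 for width (smallest limma adjusted p 0.379 and 0.754), except that EIF4EBP1 -0.1 kb could not be fitted with peaks of −log10 q of at least 5, where it was not common to all 4 lists. Rank score differences between replicates 1 and 2 were barely correlated between the groups over the 40447 common regions (correlation 0.0111). Ranks remove a shift of a whole library, so this cannot show whether same-numbered libraries were handled together. With replicate number as a block 0 regions were called. In this balanced design neither the block nor a prior that does not vary with the mean can change a difference, only its spread. Of 131 rank values 122 did not turn in direction, and of 96 width values 86 did not, and the cause of the turns was not tested. Both counts include the block and the prior that does not vary with the mean, where the direction was fixed in advance. They also take differences that rounded to 0 as not turned, and the merged EIF4EBP1 value enters for each of its joined regions. Such zeros were DDIT4 -18.7 kb in rank and the SESN2 start in width, each without a tunicamycin library. Rank differences turned for CHAC1 -15.2 kb (0.03 on log2 summit reads, -0.23 to 0.19 without 1 library), DDIT4 -18.7 kb (-0.34 to 0.21 without 1 library), EIF4EBP1 -0.1 kb (-0.32 with peaks up to 250 bp apart merged) and SESN3 (-0.07 ranked by fold, -0.05 on log2 fold, -0.23 to 0.32 without 1 library). Width differences turned for CHAC1 -0.1 kb (-0.27 merged, -0.27 to 0.45 without 1 library), EIF4EBP1 +0.5 kb (0.08 merged, -0.28 to 0.03 without 1 library), CHAC1 -15.2 kb (-0.04 to 0.11), DDIT4 start (-0.16 to 0.04), DDIT4 -18.7 kb (-0.03 to 0.21) and SESN2 -12.1 kb (-0.05 to 0.03), the last 4 without 1 library.

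Gained regions numbered 0 with peaks of at least 150 bp and 1 with at least 130 bp, an alternative added after seeing the data. No peak of the gained or lost regions was wider than 140 bp, so the limit of 150 bp had to remove them all. Without 1 library there were 3 to 6 (6 without tunicamycin replicate 1), where the looser definition gave 7.51% to 11.3% of all regions, against 3.65%. Lost regions numbered 0 with −log10 q of at least 10 and 1 with peaks of at least 150 or 130 bp, which was DDIT4 -13.1 kb and none of the original 3. With at least 10 summit reads, also added after seeing the data, 1 of the 3 was lost, DDIT4 +1.0 kb. Within 50 kb there were 5, and without 1 library 3 to 5 (5 without either tunicamycin replicate), beside 3.7% to 6.53% of all regions, against 1.86%. With −log10 q of at least 5 there were again 3 gained and 3 lost, but the members changed. EIF4EBP1 +6.7 kb took the place of DDIT4 +2.3 kb among the gained, and DDIT4 -13.1 kb that of SESN2 +0.8 kb among the lost. Low pileups limit which sites are listed at all.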
